A study of Mus musculus with 25 samples.

Results

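The genes that encode the proteins of the cytosolic ribosome were examined for Spin1 binding and for trimethylation of lysine 4 of histone H3 (H3K4me3) at their promoters in mouse primary myoblasts. Members were the protein-coding genes named Rpl or Rps with a number, together with Rplp0, Rplp1, Rplp2 and Rpsa, while the Rps6k kinase genes were left out. Of 21000 protein-coding genes with a curated transcript in the mm10 annotation, 85 met this rule, of which 53 code for proteins of the large subunit and 32 for proteins of the small subunit. They were spread over 19 chromosomes.

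The series compared mouse muscle with and without Spin1 by RNA-seq (22 samples, not used here) and mapped Spin1 and H3K4me3 by ChIP-seq. The ChIP-seq cells were myoblasts prepared from the limb muscle of C57BL/6 N mice (C57BL/6 in the sample labels) 10 days after birth and enriched by preplating, with no Spin1 deletion named for them. Spin1 was precipitated with a custom antibody and H3K4me3 with a commercial one, whose antibody label reads H3K4me although the sample title reads H3K4me3. An input library served as the control for peak calling. Each antibody gave 1 library, so no value below has a replicate, and the number of mice behind a library was not given in the sources used here. Sequencing depth was unknown from the peak lists, which held 17106 peaks for Spin1 and 30763 for H3K4me3.

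Ribosomal proteins assemble with ribosomal RNA into the small subunit, which reads the messenger RNA, and the large subunit, which joins the amino acids. Their genes are short, are transcribed in nearly every cell, and make messenger RNAs that begin with a cytosine and a run of pyrimidines, the 5′ terminal oligopyrimidine (TOP) tract through which growth signals set their translation. H3K4me3 marks the promoters of active genes, and Spin1 is a reader protein whose Tudor-like domains bind this mark. In growing myoblasts, ribosome production accompanies proliferation and the build-up of muscle mass.

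The label of the cells was compared with markers of cell types. All 6 myoblast markers (Myod1, Myf5, Pax7, Des, Cdh15 and Itga7) carried both a Spin1 and an H3K4me3 peak within 1 kb of a TSS. The blood markers Ptprc and Cd3e carried neither, and none of the endothelial markers Pecam1, Cdh5 and Tek carried Spin1, although Cdh5 and Tek had H3K4me3 peaks. Among markers of differentiated fibres, Myh4 had neither peak, Ckm had H3K4me3 without Spin1, and Acta1 had both. The fibroblast markers Pdgfra and Col1a1 also carried both peaks, while Dcn, Sox10 and Rbfox3 carried H3K4me3 alone. A peak shows only that a promoter was marked, and what share of the signal came from cells other than myoblasts was not tested.

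Nearly the whole set of ribosomal protein genes was occupied by Spin1. A Spin1 peak overlapped the promoter, taken as TSS±1 kb of any curated transcript, in 81 of 85 members (95.3%, Wilson 95% interval 88.5 to 98.2%), against 56.7% of all protein-coding genes. An H3K4me3 peak was present at the promoter of the same 81 members, against 68.0% of all protein-coding genes. Both peaks together were therefore found at 81 of 85, against 56.6% of all. These counts ask only for overlap: when the centre of the peak had to lie inside the window, 65 members (76.5%) kept Spin1, against 52.6% of all genes, but 22 (25.9%) kept H3K4me3, against 56.2%. Both peaks were then kept at 22 members, against 45.1% of all genes, so that members fell below the background for H3K4me3 and for both. No member had H3K4me3 without Spin1, a state seen at 2381 of the 20915 other genes (11.4%). The intervals cover the counting of genes only. Among other genes as short as most members (transcript span up to 5 kb), 29.2% had both peaks, while 70 of the 73 members in that range did.

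All 32 genes of the small subunit and 49 of the 53 of the large subunit carried both peaks. The stalk of the large subunit, which recruits elongation factors to the ribosome, is built from the products of Rplp0, Rplp1 and Rplp2. Their Spin1 peaks were 2873, 3162 and 2967 bp wide, and their H3K4me3 peaks 8800, 4669 and 5076 bp. Rpsa, a small-subunit gene also known as the laminin receptor gene, had a Spin1 peak of 3714 bp and an H3K4me3 peak of 5695 bp. The H3K4me3 peak of Rplp0 was thus the longest of these and ran past the gene to the start of its neighbour Gcn1.

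The 4 members without any promoter peak were Rpl3l, Rpl10l, Rpl39l and Rpl32l. Rpl3l is the paralogue of Rpl3 used in heart and skeletal muscle fibres. Rpl10l and Rpl39l are the testis paralogues of the X-linked genes Rpl10 and Rpl39, and Rpl32l is a locus of 592 bp with 1 exon. The nearest Spin1 peak lay 937541 bp from the TSS of Rpl10l, 58537 bp from that of Rpl32l and 22366 bp from that of Rpl39l. These promoters thus lay far from any Spin1 peak, and for H3K4me3 the distances were also long, at 780224, 37433 and 22052 bp. Rpl3l differed in its surroundings, since Rps2, a small-subunit gene with both peaks, lies upstream of it on the same strand of chromosome 17. The H3K4me3 peak at Rps2 (chr17:24717403-24724906, 7504 bp) covered the starts of Rps2, Rnf151 and Ndufb10 and ended 2920 bp before the TSS of Rpl3l. The nearest Spin1 peak, at Ndufb10, ended 2975 bp before it. A further peak of each list overlapped the far end of the Rpl3l transcript, outside the promoter window.

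The promoters of Rpl39l and Rpl10l are shown beside those of their parent genes, and that of Rpl3l by itself, because CpG dinucleotides are the usual company of H3K4me3. Sequences were taken from the RefSeq promoter table (GRCm38.p6), which held an entry at the same TSS for 65 of the 85 members. They run 5′ to 3′ on the strand of the gene from 250 bases before the TSS to 20 bases from it, with CpG in capitals. The stretches are chrX:37085203-37085472 (minus strand) for Rpl39, chr16:10169978-10170247 (plus) for Rpl39l, chrX:74270566-74270835 (plus) for Rpl10, chr12:66284382-66284651 (minus) for Rpl10l and chr17:24727576-24727845 (plus) for Rpl3l.
Rpl39: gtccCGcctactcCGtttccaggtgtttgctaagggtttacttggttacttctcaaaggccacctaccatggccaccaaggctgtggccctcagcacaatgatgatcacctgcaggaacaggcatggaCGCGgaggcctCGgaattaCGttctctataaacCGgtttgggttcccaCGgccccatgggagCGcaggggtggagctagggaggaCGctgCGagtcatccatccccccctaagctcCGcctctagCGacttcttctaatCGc
Rpl39l: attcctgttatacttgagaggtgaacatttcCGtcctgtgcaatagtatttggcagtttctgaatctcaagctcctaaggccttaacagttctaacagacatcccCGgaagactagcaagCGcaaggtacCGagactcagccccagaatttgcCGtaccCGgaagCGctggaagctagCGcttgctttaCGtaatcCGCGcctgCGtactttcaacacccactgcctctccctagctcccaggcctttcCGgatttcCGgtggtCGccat
Rpl10: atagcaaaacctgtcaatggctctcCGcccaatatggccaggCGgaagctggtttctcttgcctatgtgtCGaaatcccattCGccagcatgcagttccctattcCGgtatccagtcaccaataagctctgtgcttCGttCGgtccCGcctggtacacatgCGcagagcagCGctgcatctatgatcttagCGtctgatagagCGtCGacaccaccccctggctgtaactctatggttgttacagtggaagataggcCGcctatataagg
Rpl10l: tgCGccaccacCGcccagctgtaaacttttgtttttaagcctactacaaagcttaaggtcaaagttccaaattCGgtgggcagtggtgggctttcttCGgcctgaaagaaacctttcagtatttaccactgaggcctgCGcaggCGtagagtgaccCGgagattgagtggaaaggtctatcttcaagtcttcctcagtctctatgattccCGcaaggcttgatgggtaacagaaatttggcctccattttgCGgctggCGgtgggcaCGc
Rpl3l: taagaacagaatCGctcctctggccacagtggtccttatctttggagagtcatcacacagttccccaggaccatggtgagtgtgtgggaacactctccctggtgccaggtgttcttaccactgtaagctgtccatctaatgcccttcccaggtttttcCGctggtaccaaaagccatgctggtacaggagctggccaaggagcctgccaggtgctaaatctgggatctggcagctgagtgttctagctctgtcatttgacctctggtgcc
Rpl39, which carried both peaks, held 14 CpGs in this stretch, and Rpl39l, which carried neither, held 15. Rpl10 held 14 and Rpl10l held 11. In these pairs the unoccupied paralogue was therefore close to its occupied parent in CpG number, whereas Rpl3l held 2. Over the whole 300 bases of the table, the observed-to-expected CpG ratio was 0.0892 in Rpl3l, 0.333 in Rpl32l, 0.643 in Rpl10l and 0.836 in Rpl39l. The median was 0.903 over the 61 occupied members with an entry (range 0.421 to 1.25), 0.771 over other protein-coding genes with both peaks, 0.588 over promoters of protein-coding genes and 0.384 over all 32851 promoters of the table. Rpl10l and Rpl39l thus lay within the range of the occupied members, and Rpl3l and Rpl32l below it.

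Spin1 and H3K4me3 peaks at ribosomal protein genes were wide and lay mainly along the gene. The median Spin1 peak measured 3212 bp (95% interval of the median 3007 to 3403, n = 81), against 2289 bp at other genes (n = 11820). The median H3K4me3 peak measured 5579 bp (5076 to 5916), against 3238 bp at other genes with an H3K4me3 peak (n = 14193) and 3525 bp at those with both peaks (n = 11812). Of the 81 occupied members, 77 had a Spin1 peak wider than the median of other genes, and all 81 had a wider H3K4me3 peak. The width of the H3K4me3 peak exceeded that of the Spin1 peak in every occupied member and in 99.1% of other genes with both peaks, with a median ratio of 1.65 in members (range 1.19 to 4.44) and 1.54 in other genes.

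The added width lay downstream of the TSS. Upstream, the Spin1 peak began at a median of -888 bp in members and -770 bp in other genes, and the H3K4me3 peak at -1286 and -1050 bp (-1149 bp in other genes with both peaks). Downstream, the Spin1 peak ended at a median of 2309 bp in members and 1400 bp in other genes, and the H3K4me3 peak at 4071 and 2005 bp (2168 bp in other genes with both peaks). The edges on the gene side were thus much further out, whereas those on the upstream side differed little. At 2000 bp downstream of the TSS, 58 of 81 members (71.6%) were covered by Spin1, against 20.5% of the 11812 other genes with both peaks. At 4000 bp, 42 of 81 (51.9%) were covered by H3K4me3, against 10.1%. At 1000 bp upstream the shares were closer, at 44.4% and 34.0% for Spin1 and 71.6% and 59.4% for H3K4me3.

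**Figure D1:**
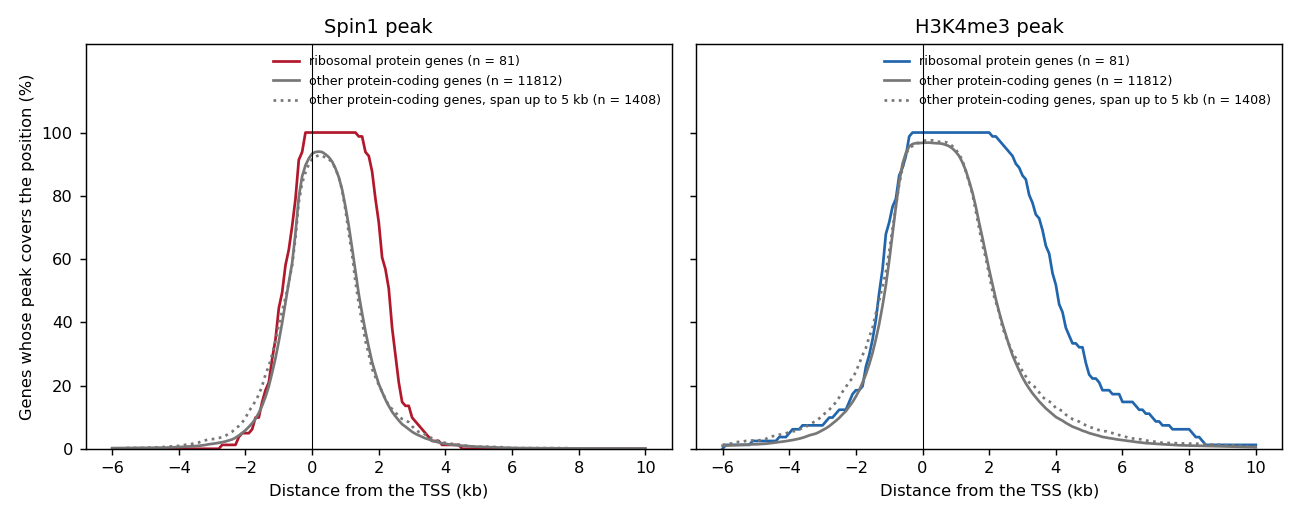
Share of genes (%) whose Spin1 peak (left) or H3K4me3 peak (right) covered each position around the TSS (kb, positive along the gene), for 81 ribosomal protein genes (coloured line), 11812 other protein-coding genes with both peaks (grey line) and the 1408 of these with a span up to 5 kb (dotted line). The coloured and grey lines run close together upstream of the TSS and part downstream of it.

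Each peak covered the TSS in all 81 occupied members, against 93.3% of other genes with both peaks for Spin1 and 96.7% for H3K4me3. Coverage was read at 1 TSS per gene, although the peak could overlap the promoter of any curated transcript. In other genes the peak could thus lie at an alternative start, and Spin1 centre offsets ran from -708479 to 2099902 bp. In members the centres of the peaks were shifted along the gene, by a median of 702 bp for Spin1 (95% interval 594 to 791) and 1311 bp for H3K4me3 (1189 to 1649). The medians were 320 and 435 bp in other genes (487 bp for H3K4me3 in those with both peaks). The Spin1 centre lay in an intron in 62 members, in an exon in 14, upstream of the gene in 4 and past the end of the gene in 1, which was Rpl41. In 72 of 81 members the H3K4me3 centre lay further downstream than the Spin1 centre (88.9%, against 72.5% of other genes). The Spin1 peak lay wholly inside the H3K4me3 peak in 73 of 81 members (90.1%), against 91.7% of all protein-coding genes with both, so that containment was near the background.

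The genes themselves are compact, and many were marked from end to end. The median transcript span was 3068 bp over all 85 members and 16274 bp over other genes. The H3K4me3 peak covered the whole transcript in 65 of 81 members (80.2%), and the Spin1 peak did so in 22 of 81 (27.2%). In other genes with both peaks these shares were 4.44% and 1.90%, and in those with a span up to 5 kb they were 34.7% and 15.7%. The median H3K4me3 peak of members ended 991 bp past the end of the transcript, whereas the median Spin1 peak ended before it, at -743 bp.

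Short members with a high score were set beside other genes of like span and score. In the 68 members with a span up to 5 kb and a Spin1 score of 3100 or more, the median downstream edge was 2336 bp for Spin1 and 3994.5 bp for H3K4me3. In the 620 other genes within these limits, the medians were 1739.5 and 2698 bp. The Spin1 widths were close, at 3201 and 3127 bp. The median upstream edge of Spin1 was at -902 bp in these members and at -1217.5 bp in those other genes. The position of the Spin1 peak along the gene therefore differed more than its width did.

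**Figure D2:**
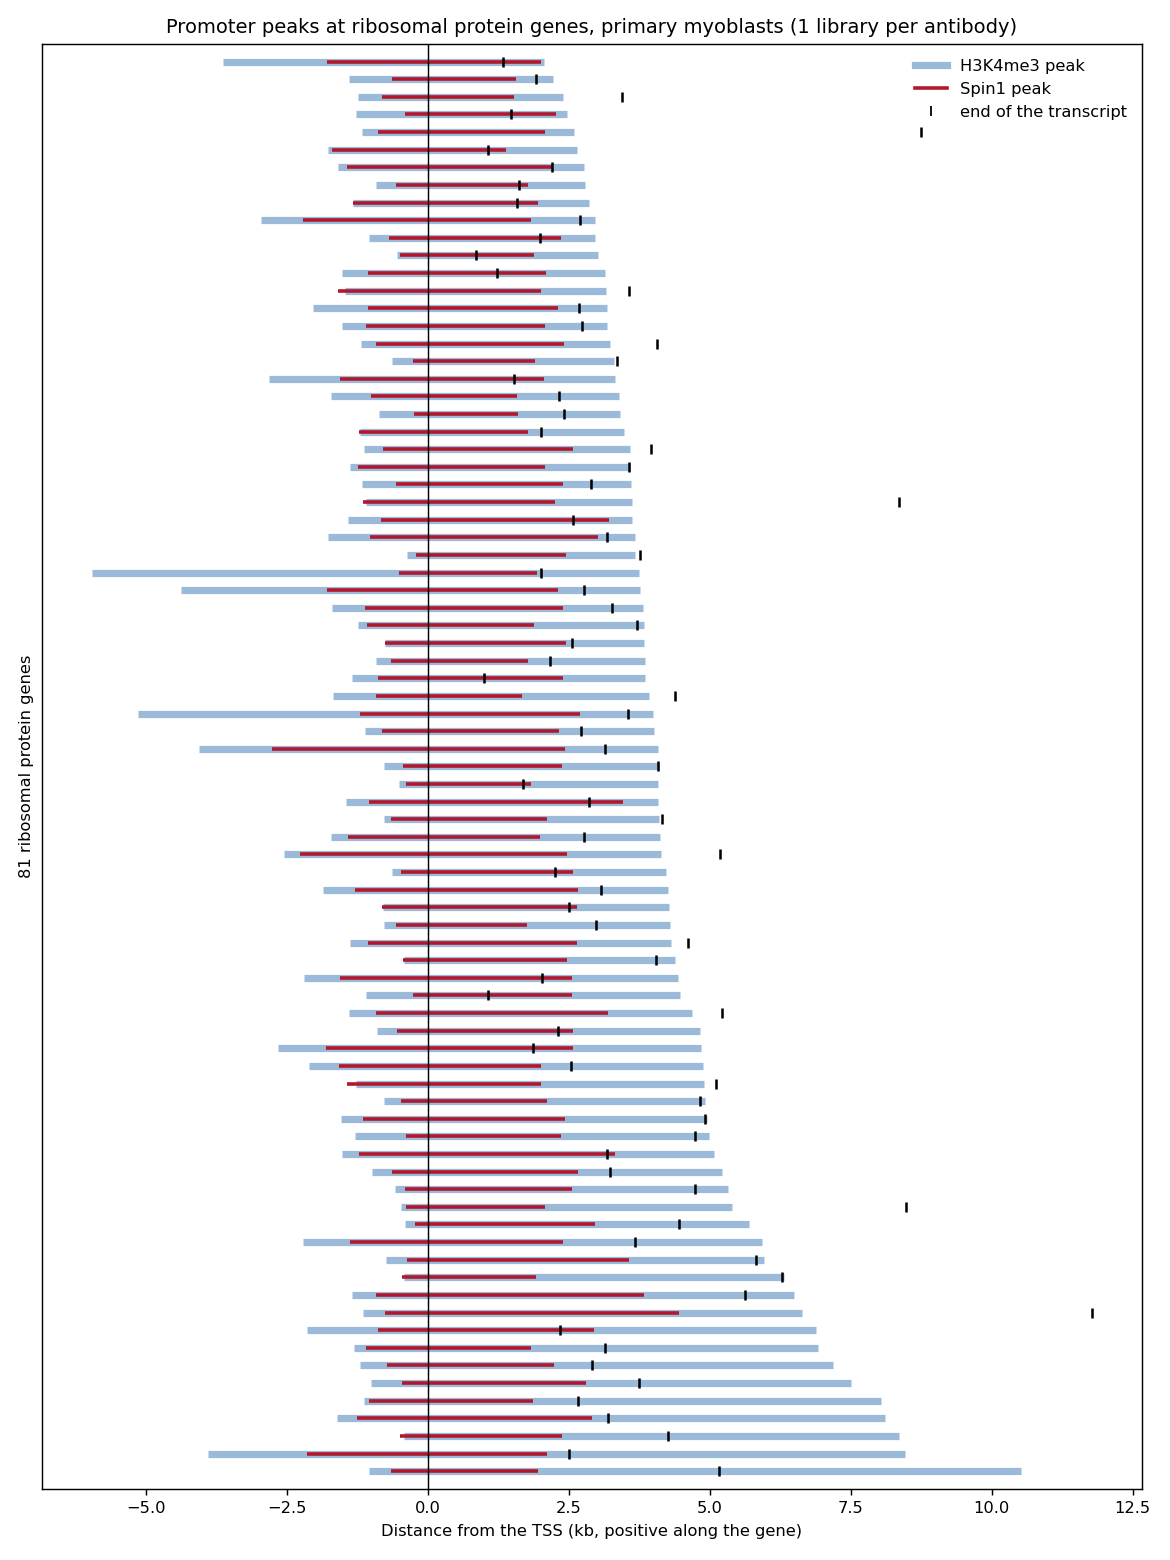
Extent of the Spin1 peak (red) and the H3K4me3 peak (blue) from the TSS (kb, positive along the gene) at each of the 81 ribosomal protein genes with both peaks, ordered by the downstream edge of the H3K4me3 peak, with the end of the transcript as a black tick. In 65 genes the blue bar covers the whole transcript, and in 22 the red bar does.

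Individual members spread over a severalfold range. The narrowest Spin1 peaks were at Rpl36a (1850 bp), Rpl27 (2164 bp), Rpl22l1 (2203 bp), Rps15 (2225 bp) and Rpl26 (2324 bp), all of them components of the subunit their names give except Rpl22l1, a paralogue of Rpl22. The widest were at Rps15a (5222 bp), Rpl7 (5199 bp), Rpl3 (4759 bp), Rpl4 (4727 bp) and Rpl27a (4547 bp). Rps15a, whose transcript of 11774 bp was the longest among members, had its Spin1 peak at chr7:118111696-118116917, with the centre 1841 bp into the gene in an intron. Rps3, which lies at the entry of the messenger RNA channel, and Rpl3, which lies near the peptidyl transferase centre, had the next most downstream Spin1 centres, at 1597 and 1457 bp. The most upstream centres were those of Rps25 (-195 bp), Rpl7 (-175 bp) and Rps21 (-156 bp). Rpl7 thus had a wide Spin1 peak that reached far to the upstream side, and Rps15a one that reached along the gene.

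For H3K4me3 the narrowest peaks were at Rpl36 (3564 bp), Rpl22l1 (3613 bp), Rps27l (3634 bp), Rps23 (3715 bp) and Rps29 (3740 bp). Rpl36 was also the member with more than 1 H3K4me3 promoter peak, of which the wider was used. Among the widest were those at Rpl7a (12367 bp), Rpl24 (11559 bp) and Rpl23a (9167 bp). Each of these wide peaks covered the start of a further gene. The peak at Rpl7a (chr2:26906893-26919259) covered Med22 and 2 other genes of the surfeit locus, Surf1 and Surf2, and that at Rpl24 covered Zbtb11. That at Rpl23a covered Tlcd1 and Nek8.

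Across the 81 occupied members, the width of the Spin1 peak and that of the H3K4me3 peak were related with a Spearman rho of 0.451, against 0.796 across 11812 other genes. The upstream edges of both peaks were related with rho = 0.815 in members, and the downstream edges with rho = 0.431, where other genes gave 0.780 and 0.801. In members the Spin1 and H3K4me3 peaks therefore followed each other on the upstream side more closely than on the gene side. Transcript span was related to the downstream edge of H3K4me3 with rho = 0.445 and to that of Spin1 with rho = 0.293. These are descriptions across genes that share the same pair of libraries, and genes are not independent replicates.

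**Figure D3:**
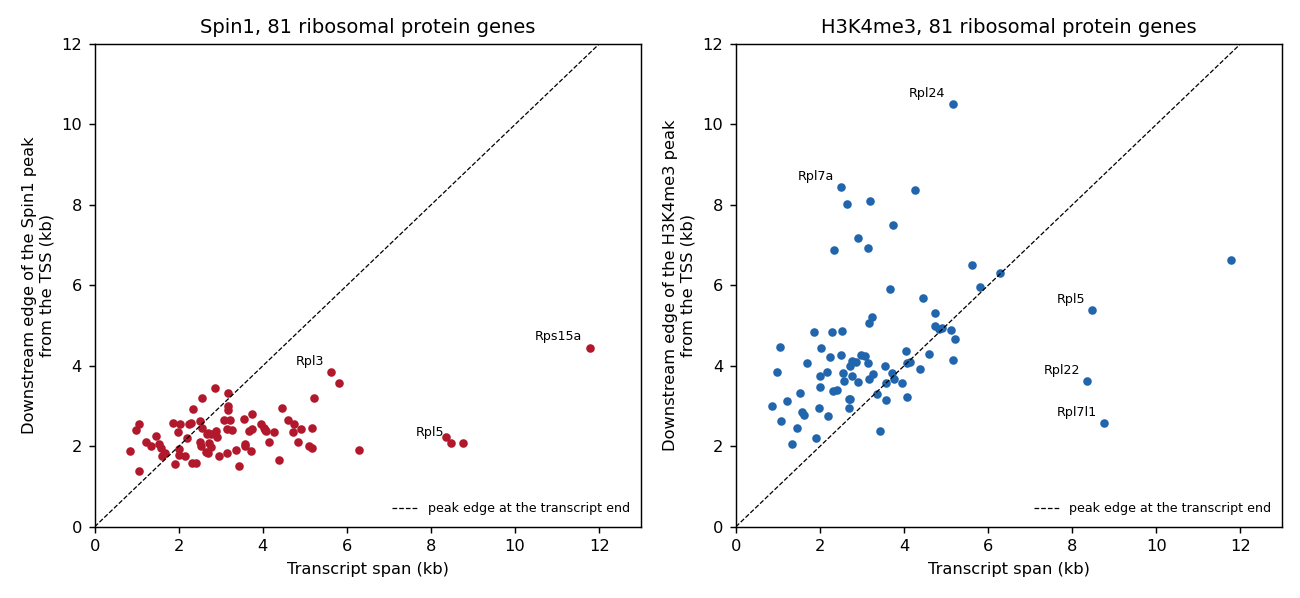
Downstream edge of the Spin1 peak (left) and the H3K4me3 peak (right) from the TSS (kb) against the span of the transcript (kb) for 81 ribosomal protein genes, 1 point a gene, with a dashed line where the peak would end at the end of the transcript. The Spin1 edges have quartiles of 1953 and 2565 bp and mostly lie below the line, and most H3K4me3 edges lie above it.

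Peak scores were high at nearly all members. The score, which the peak caller derives from the p-value of a peak and which grows with depth and width, piles up at 3100, so that it separates little above this value. A Spin1 score of 3100 or more was reached at 78 of 81 occupied members (96.3%), against 48.8% of all protein-coding genes with a Spin1 peak. For H3K4me3 all 81 reached it, against 89.6% of all protein-coding genes with an H3K4me3 peak. The members below this value for Spin1 were Rpl36a (642.91), Rpl7l1 (1785.39) and Rpl10 (2112.6). Rpl10, which joins the large subunit late in its assembly, and Rpl36a both lie on chromosome X, and so do Rpl39 (3210.03) and Rps4x (3100), the X-linked small-subunit gene. Thus 2 of the 4 X-linked members stayed below 3100, against 1 of the 77 autosomal ones. Among other genes with both peaks, 7.58% of 343 on chromosome X and 49.7% of 11465 on autosomes had a Spin1 score of 3100 or more, while for H3K4me3 the shares were 98.0% and 98.6%. Low Spin1 scores were therefore common on the X in genes at large, and the cause was not tested.

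The paralogues that carried peaks had narrower H3K4me3 peaks than the genes they derive from, with 1 exception. Rps27l, a p53 target related to Rps27, had an H3K4me3 peak of 3634 bp, and Rps27 one of 5192 bp. Rpl22l1 had 3613 bp and its parent Rpl22 had 4726 bp. Rpl7l1, related to Rpl7 and of 8750 bp span, had 3766 bp, where Rpl7 had 8136 bp. Rpl36al differed, with 5698 bp against 4271 bp at the X-linked Rpl36a, and its Spin1 peak was also wider, at 3805 against 1850 bp. Rpl36al shares its promoter with Mgat2, a gene of N-glycan synthesis whose start lies 91 bp away on the opposite strand, so that its peaks span a pair of starts. The peaks of the parents Rps27 and Rpl7 also covered a further start, that of Rab13 at 67 bp and of Rdh10 at 1449 bp. Rpl22 and Rpl22l1 were the pair with peaks at both genes and no further start in any. For Rpl3, Rpl10 and Rpl39 the parent carried both peaks and the paralogue neither. Rps4x, parent of Rps4l, had a Spin1 peak of 3190 bp and an H3K4me3 peak of 6105 bp, and Rps4l was not analysed here as it was not among the curated protein-coding genes.

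Some peaks served a second gene. In 15 of 81 members the Spin1 peak covered the TSS of another protein-coding gene (18.5%, against 17.8% of other genes with both peaks), so that the share was near the background. The neighbour was divergent, on the other strand and pointing away, in 13 of these. The closest starts were Rps28 with Ndufa7 (10 bp), Rpl9 with Lias (66 bp), Rps27 with Rab13 (67 bp) and Rpl18 with Sphk2 (69 bp). They were followed by Rpl12 with Lrsam1 (71 bp), Rps27a with Clhc1 (90 bp), Rpl36al with Mgat2 (91 bp) and Rps18 with Vps52 (135 bp). Ndufa7 codes for a subunit of respiratory complex I, Lias for lipoic acid synthase, Rab13 and Vps52 for proteins of vesicle traffic, and Sphk2 for a sphingosine kinase. A Spin1 peak at these places cannot be told apart between the ribosomal protein gene and its neighbour. The median Spin1 width was 3826 bp in these 15 members and 3070.5 bp in the 66 others, where the median centre lay 726.5 bp downstream of the TSS. The H3K4me3 peak covered a further start in 24 members (29.6%, against 19.3% of other genes with both peaks). In the 57 others it had a median width of 5059 bp, against 3329 bp in the 9535 other genes with both peaks and no further start in the H3K4me3 peak.

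Many ribosomal protein genes carry small nucleolar RNA (snoRNA) genes in their introns, whose products guide the modification of ribosomal RNA. A snoRNA gene on the same strand lay inside 30 of the 81 occupied members (37.0%), against 1.28% of other genes with both peaks. Of the 58 snoRNA genes in these members, 43 (74.1%) lay wholly inside the Spin1 peak of the host and 57 (98.3%) inside its H3K4me3 peak. In other hosts, 25 and 52 of 199 did. Rpl13a, which can leave the ribosome to silence inflammatory messages, hosts Snord32a, Snord33, Snord34 and Snord35a, all of which lay inside both peaks, from 1282 to 2310 bp after the TSS. Rpl7a likewise had all 4 of its snoRNA genes inside both peaks, while Rps12 and Rpl17 had all 3 of theirs. Rpl4, a large-subunit gene lining the peptide exit tunnel, had 2 of 5 in the Spin1 peak and 5 of 5 in the H3K4me3 peak. Rpl23a had 1 of 3 in the Spin1 peak, and Rpl3 and Rpsa had 2 of 3, with all of them in the H3K4me3 peak. Rpl5, which carries 5S ribosomal RNA to the ribosome and spans 8478 bp, had none of its 3 in the Spin1 peak and 2 in the H3K4me3 peak. Host genes had a median H3K4me3 width of 6246.5 bp and members without a snoRNA gene 5059 bp, while the Spin1 medians were 3239 and 3212 bp.

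The starts of ribosomal protein transcripts lie within these peaks, and the TOP tract can be read from the promoter table. The annotated first base was a cytosine followed by at least 4 pyrimidines in 12 of the 61 occupied members with an entry (19.7%). The share was 2.51% of all promoters of the table and 2.21% of the promoters of other genes with both peaks. Annotated starts can lie some bases away from the start used in cells, so a wider window was also read. A run of at least 8 pyrimidines lay within 20 bases of the annotated start in 29 of 61 (47.5%), against 16.0% of all promoters and 1905 of 12284 promoters of other genes with both peaks. To show such tracts, the members with a first cytosine and the longest pyrimidine run from it are given from 40 bases before the start to 20 bases from it, with the pyrimidine run through the first base in capitals, followed by the unoccupied Rpl32l. On GRCm38.p6 they are chr14:18270967-18271026 for Rpl15, chr2:39005112-39005171 for Rpl35, chr17:27635225-27635284 for Rps10, chr17:33955646-33955705 for Rps18, chr4:86857348-86857407 for Rps6, chr7:4792925-4792984 for Rpl28, chr11:114668540-114668599 for Rpl38, chr7:118116128-118116187 for Rps15a and chr10:20208399-20208458 for Rpl32l, with Rpl28, Rpl38 and Rpl32l on the plus strand and the others on the minus strand.
Rpl15: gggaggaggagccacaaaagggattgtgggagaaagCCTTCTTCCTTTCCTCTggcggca
Rpl35: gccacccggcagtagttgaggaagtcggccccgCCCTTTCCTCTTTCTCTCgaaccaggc
Rps10: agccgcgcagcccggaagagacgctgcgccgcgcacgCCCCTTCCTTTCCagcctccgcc
Rps18: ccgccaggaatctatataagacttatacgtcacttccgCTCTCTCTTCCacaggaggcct
Rps6: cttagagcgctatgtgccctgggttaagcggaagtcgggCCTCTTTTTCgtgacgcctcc
Rpl28: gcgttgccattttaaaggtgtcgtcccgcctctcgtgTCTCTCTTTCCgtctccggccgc
Rpl38: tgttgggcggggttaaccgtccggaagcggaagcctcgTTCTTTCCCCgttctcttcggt
Rps15a: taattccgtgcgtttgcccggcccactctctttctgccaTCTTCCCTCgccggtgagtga
Rpl32l: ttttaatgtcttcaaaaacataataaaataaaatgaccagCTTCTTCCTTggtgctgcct
Rps6, the ribosomal protein phosphorylated by S6 kinase, and Rpl38, needed for the translation of Hox messages, are among them. Counted from the first base, Rpl32l carried a run of 10 pyrimidines, as many as Rps10, although it had neither peak. A TOP-type sequence was therefore also found at the annotated start of a locus with no Spin1 or H3K4me3 peak. Rpl32l is a locus of 592 bp with 1 exon, and whether this start is used in cells was not tested. Members without an entry included Rpl17, Rpl21, Rpl23a, Rpl29, Rpl3, Rpl30, Rpl32, Rpl36, Rpl7, Rpl8, Rplp1, Rps14, Rps20, Rps27a and Rps29.

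Short motifs were counted on both strands of the 300-base promoters. Shares for other genes with both peaks are shares of their 12284 promoters, some of which need not carry a peak. CCGGAA, the core bound by ETS factors, was present in 30 of 61 occupied members (49.2%), in 14.9% of all promoters and in 27.5% of the promoters of other genes with both peaks. AAGATGG, the core of the YY1 site, was in 9 of 61 (14.8%) in 6.34% of all promoters and in 6.90% of other genes with both peaks. GGGCGG, the core of the SP1 box, was in 39 of 61 (63.9%), in 35.7% of all and in 64.6% of other genes with both peaks, so that its share was near that of occupied genes in general. The E-box CAGCTG, which MyoD can bind, was in 2 of 61 (3.28%), in 16.3% of all promoters and in 15.1% of other genes with both peaks. CACGTG, the E-box of Myc, was in 5 of 61 (8.20%), in 7.15% of all and in 9.92% of other genes with both peaks. TATAAA was in 6 of 61 (9.84%), below the 13.6% of all promoters and above the 6.76% of other genes with both peaks. Its part TATA, read on the strand of the gene from 40 to 16 bases before the start, was in 7 of 61 (11.5%), in 5.91% of all and in 2.82% of other genes with both peaks. CCAAT was in 20 of 61 (32.8%), in 37.4% of all and in 37.9% of other genes with both peaks. Apart from TATA, no motif contains another of them, and a match is a description of the letters, not of binding.

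Other genes of protein synthesis were compared by the same measures. All 78 genes of mitochondrial ribosomal proteins carried both peaks, and 32 of 78 (41.0%) reached a Spin1 score of 3100. Their median widths were 2079 bp for Spin1 (95% interval 1963 to 2200) and 3143 bp for H3K4me3 (2928 to 3335). Both lay below the medians of other genes with both peaks, at 2289 and 3525 bp. The 20 ribosome biogenesis genes all carried both peaks, with medians of 2906 and 5095 bp. Among these, Ncl (nucleolin) had an H3K4me3 peak of 8112 bp and Npm1 (nucleophosmin) one of 8851 bp. Of 56 genes named as initiation factors 53 carried both peaks, with medians of 2884 and 4242 bp. Of 15 genes with an elongation factor name, which include methyltransferases and a kinase of these factors, 14 carried both. Over all peaks of this list the median width was 3032 bp for Spin1 (n = 14) and 4288 bp for H3K4me3 (n = 15), with Eef1akmt4 and the readthrough gene Eef1akmt4-ece2, which share a start and its peaks, each counted. Eef1a2, the form used in muscle fibres and neurons, had an H3K4me3 peak of 1045 bp and no Spin1 peak. Eef1a1 and Eef2, whose messages carry TOP tracts, had Spin1 peaks of 4801 and 3806 bp and H3K4me3 peaks of 6823 and 11682 bp. Eef1b2, Eef1d and Eef1g had Spin1 peaks of 4089, 4074 and 4090 bp and H3K4me3 peaks of 6657, 7237 and 6530 bp. These factors from Eef1a1 to Eef1g all lay above the member medians of 3212 and 5579 bp. Eef1e1 (2109 and 3168 bp) lay below both. Fau, which codes for a ubiquitin-like protein fused to a ribosomal protein, had a Spin1 peak of 3131 bp and an H3K4me3 peak of 8407 bp, both shared with Mrpl49 of the mitochondrial list. Rps27a, a member that codes for a fusion with ubiquitin, had 3653 and 4364 bp, and Rack1, a scaffold on the small subunit, 4880 and 7834 bp. The cytosolic ribosomal protein genes thus stood apart in width from the mitochondrial ones, and the median widths of the biogenesis, initiation and elongation lists fell between. The elongation median mixes factors with genes that modify them, and it does not place factors such as Eef1a1 and Eef2 below the members. With 1 library for each antibody none of these differences could be tested.

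**Figure D4:**
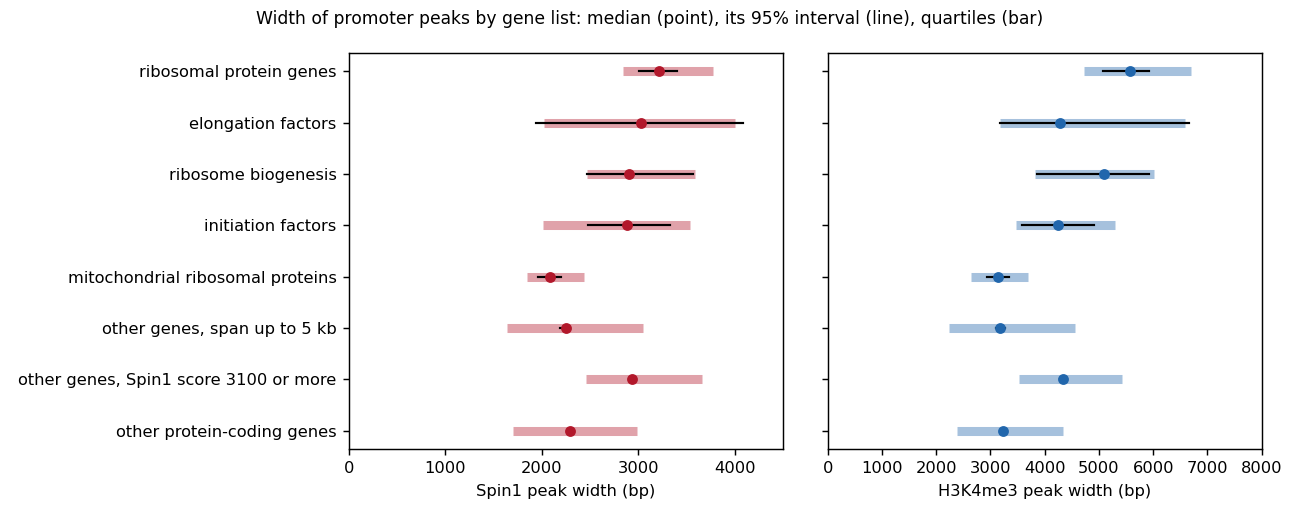
Width (bp) of the Spin1 promoter peak (left) and the H3K4me3 promoter peak (right) by gene list, with the median as a point, its 95% interval as a line and the quartiles as a bar. The ribosomal protein genes have medians of 3212 and 5579 bp and the mitochondrial ribosomal protein genes 2079 and 3143 bp.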

How the data were processed

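ChIP-seq of Spin1 and of H3K4me3 in primary myoblasts, 1 library each, was analysed from peak lists on mm10. Per the submitters' processing notes and the study's methods, the authors aligned reads with Bowtie2 and called peaks with MACS 1.4.2 against an input library, keeping peaks at a false discovery rate up to 1%. The deposited score is the peak caller's transform of the p-value, a multiple of its negative logarithm. It grows with depth and width and gathers at 3100. Alignment used default settings, under which Bowtie2 reports 1 placement for a read that fits several. Uniquely mapped reads were used for intensity profiles, and the methods do not say whether peak calling was limited to them.

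Promoters were TSS±1 kb of curated transcripts of RefSeq annotation release 108.20200622 (GRCm38.p6, the assembly of mm10), and an overlap of 1 bp counted. Where a gene had several peaks the widest was taken. Offsets were from the TSS of the RefSeq Select transcript, else of the most 5′ curated one, signed along the gene. Coordinates are 1-based.

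Members were described by counts and medians beside the same values over other protein-coding genes, with Wilson intervals for shares and order-statistic intervals for medians (95%), which cover counting only. No test was run, as each antibody had 1 library. Named genes were members without a peak, paralogues and their parents, the 5 widest and 5 narrowest peaks, the lowest scores, the extreme Spin1 centres, the stalk genes and Rpsa, up to 8 members with a neighbouring start in the Spin1 peak, and hosts of at least 3 snoRNA genes. Further genes were named after their values were seen, and some genes that these rules select are not reported here. Members and lists were chosen with earlier results of these data known. Alternatives varied the window, the score threshold, the TSS, the overlap, the peak chosen and the members. The assignment was tested on simulated data. Analyses used Python 3.11.15, pandas 2.3.3, NumPy 2.4.6, SciPy 1.17.1 and matplotlib 3.10.9.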

Additional observations from a re-analysis of the deposited data

How the results depend on the processing

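For 11 results, 87 alternatives were run, of which 83 were planned and 4 were added after the data had been seen. Counts stayed within 1.5 times the value reported and medians and shares within their 95% interval in 79 of them, and no offset changed sign. When the centre of a peak had to lie inside TSS±1 kb, 22 members kept an H3K4me3 promoter peak and 22 kept both, and the median H3K4me3 width fell to 4681.5 bp and its centre offset to 586.5 bp, because this setting removes peaks centred further along the gene. The count with Spin1 was then 65 (76.5%, against 52.6% of all genes). For H3K4me3 and for both peaks the members (25.9%) then lay below all genes (56.2% and 45.1%), the opposite of the direction under overlap. The share of all protein-coding genes with both peaks was 45.1% under that setting, 42.8% with the 50% of peaks with the highest scores, 55.7% with a window of 1 kb upstream to 0.1 kb downstream, and 55.8% with 1 TSS per gene. The median widths and offsets of members stayed above those of other genes in every setting run. Without members whose Spin1 peak covers a neighbouring start, a setting added after the data had been seen, the medians were 3070.5 and 5116.5 bp for width and 726.5 and 1411.5 bp for offset. No paired analysis was possible because each antibody was represented by a single library. Depth was unknown, so a missing peak cannot be told apart from a weak one, and scores at 3100 give no order among genes.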

Other observations

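Ribosomal protein genes have many processed pseudogenes, which are copies of their messenger RNAs inserted elsewhere in the genome. An H3K4me3 peak overlapped 99 of the 318 annotated ribosomal protein pseudogenes (31.1%, Wilson 95% interval 26.3 to 36.4%), against 941 of 10013 other pseudogenes (9.40%). A Spin1 peak overlapped 9 of 318 (2.83%), against 2.47% of other pseudogenes. At 97 of the 99 the H3K4me3 peak covered no TSS of a protein-coding gene. These peaks were narrow, with a median width of 743.5 bp beside a median pseudogene span of 531 bp, and their median score was 189. Examples chosen after their values were seen were Rps10-ps2, with an H3K4me3 peak of 806 bp at a score of 3100 and a Spin1 peak of 655 bp at 127.78, and Rpl10a-ps1, with 1155 bp at 3100 and 675 bp at 121.37. The pseudogene Rps4l-ps had an H3K4me3 peak of 530 bp. Where reads shared by a copy and its parent gene were placed was not tested.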
